A study of Homo sapiens with 64 samples.

Results

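Mitochondrial ribosomal proteins are made in the cytosol from nuclear genes and imported into mitochondria, where they assemble with mitochondrial ribosomal RNA into the mitoribosome. This ribosome translates the few proteins that the mitochondrial genome encodes, all of them parts of the respiratory chain and the ATP synthase. Some of its proteins descend from bacterial ribosomal proteins, and others were added after mitochondria arose. The genes were chosen by symbol alone (MRPL or MRPS, a number and an optional letter A, B or C), with no measured value used. Of 39004 symbols in the tables, 78 fit, with 77 in each table of counts per gene and 78 in the SLAM-seq table, which has MRPL58 in addition. MRPS36 carries such a symbol, but it is now known as a subunit of an oxoglutarate dehydrogenase complex, so it is counted among the 78 and placed in neither ribosomal subunit.

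Both cell lines are established human lines: C4-2 comes from prostate cancer and grows without androgen, and HEK293T derives from embryonic kidney. Cells received a control siRNA (siCTRL), an siRNA against FBL (siFBL) or, in HEK293T, an siRNA against NOP56 (siNOP56). FBL (fibrillarin) is the enzyme that methylates ribosomal RNA in the nucleolus as part of box C/D small nucleolar ribonucleoproteins, in which NOP56 serves as a scaffold. The HEK293T time course had 3 siRNAs at 0, 6, 12 and 24 h and the C4-2 time course had siCTRL and siFBL at 0, 3, 6 and 12 h, with 2 libraries per group and 24 and 16 libraries in all. The series design gives mRNA half-life as the purpose of the hours, and the sources used here do not give how new transcription was stopped. Anti-FBL RNA immunoprecipitation (RIP) was done in C4-2 cells with siCTRL (2 RIP and 2 input libraries). SLAM-seq, in which 4-thiouridine built into RNA is read as a T>C conversion, gave 16 libraries of C4-2 cells with siCTRL or siFBL after 24 h of labelling at 100 µM and a chase with uridine. Nothing in the labels says that replicates are separate cultures, so p-values measure the spread between these samples, which may be technical.

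Total counts per library were 79030570 to 106116071 in C4-2, 15957331 to 19881543 in HEK293T and 22909634 to 33270113 in RIP and input, and SLAM-seq libraries had 14308365 to 60310841 mapped reads. Levels are given in CPM, the counts of a gene relative to the library's total, scaled with trimmed mean of M-values (TMM) factors. FBL lay at 265.4 to 387.8 CPM in the C4-2 control libraries and at 0.60 to 3.63 CPM with siFBL. In HEK293T it lay at 302.9 to 485 CPM and at 7.19 to 17.69 CPM, and NOP56 lay at 146 to 205.8 CPM with siCTRL and at 49.9 to 91.95 CPM with siNOP56. The summed prostate luminal markers (8 of 8 detected) were at 4684 to 6191 CPM in the C4-2 control libraries and 4814 to 7310 CPM with siFBL, while 7 genes listed for HEK293T summed to 69.6 to 95.8 CPM and 26.4 to 49.5 CPM. Not all 7 set the lines apart: NES averaged 34.07 CPM in C4-2 and 6.775 CPM in HEK293T, and WT1 4.392 and 4.269 CPM. At 0 h with siFBL in C4-2, NES (log2 −1.48) and HOXA10 (−1.25) were lower, and WT1 (−0.96), PAX2 (0.30), NEFM (0.90), LIN28B (1.12) and NEFL (1.22) were not called. The part of these genes in the results below was not tested. Leukocyte markers, 5 in number, stayed between 1.79 and 4.03 CPM in C4-2. In such bulk samples, fewer cells of a type and less RNA per cell cannot be told apart.

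The members together took 0.742 to 0.838% of the counts in C4-2, 0.379 to 0.678% in HEK293T, 0.137 to 0.573% in RIP and input, and 0.709 to 1.055% of the SLAM-seq reads counted per gene. Per kilobase of the longest principal transcript in GENCODE v29, the median member stood at 53.91 CPM per kb in the 0 h control libraries of C4-2 and at 32.9 in those of HEK293T. MRPL37, a mitochondria-specific protein of the large subunit, was highest in both lines, with 249.5 CPM per kb in C4-2 and 271.4 in HEK293T. It was followed in C4-2 by MRPL20 (228.3 CPM per kb) and MRPL4 (222.1), and in HEK293T by MRPL4 (141.8) and MRPL12 (126.2). MRPS24 was lowest in both (0.469 and 0.154 CPM per kb) and failed the count filter in HEK293T and RIP. In the SLAM-seq reads of C4-2, counted over 3′ intervals, it was at 146.8 to 301.9 CPM against 0.241 to 0.845 CPM in the C4-2 count table, so its low count per symbol is not shown to be a low mRNA level, and the cause was not tested. The rank correlation of these levels between the lines was 0.833 over 77 members, as a description of values that share transcript lengths.

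Promoters of nuclear genes for mitochondrial proteins are known for ETS factor, YY1 and NRF1 motifs, which many other housekeeping genes also carry. RefSeq promoter entries (GRCh38.p14, 250 bases before to 50 after the start site) matched 69 of the 78 symbols. The ETS core CCGGAAG, searched on both strands like each motif here, was present for 30 of 69 members (43.5%) and for 12.2% of 27305 genes. The YY1-type AAGATGGC was present for 21 (30.4%) against 3.52%. The NRF1-type GCGCATGC was present for 6 (8.7%) against 3.68%, the E-box CACGTG for 9 (13%) against 8.77% and CCAAT for 23 (33.3%) against 39.7%. Of all 35116 windows, 10.3, 2.89, 3.05, 7.26 and 34.6% held these motifs in the same order. The ETS core ends in AAG and the YY1-type motif begins with AAG, so a single stretch can hold both. At least one of them was present for 43 members and both for 8, and whether matches in these 8 overlap was not worked out. Of the 21 members with AAGATGGC, 17 had the first match on the gene's strand, and in 13 of these its ATG is an annotated start codon in GENCODE v29, with the motif beginning 7 to 36 bases downstream of the start site. These windows of 30 bases, written on the gene's strand with the motif in capitals, are shown for members that the results below turn on. They cover the start codon of 5 members and, for the last 3, an ETS match near the start site. A match is a description of the letters and not a binding site.
MRPS18A, GRCh38.p14 chr6:43687764-43687793, minus strand: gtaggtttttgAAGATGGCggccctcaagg
MRPS18B, GRCh38.p14 chr6:30617852-30617881, plus strand: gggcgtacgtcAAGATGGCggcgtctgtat
MRPS30, GRCh38.p14 chr5:44808949-44808978, plus strand: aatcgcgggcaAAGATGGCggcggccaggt
MRPS27, GRCh38.p14 chr5:72320206-72320235, minus strand: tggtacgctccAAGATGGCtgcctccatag
MRPL45, GRCh38.p14 chr17:38297170-38297199, plus strand: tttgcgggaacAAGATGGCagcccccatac
MRPS10, GRCh38.p14 chr6:42217865-42217894, minus strand: ccgctgtaaccCCGGAAGcaatcctgagag
MRPL16, GRCh38.p14 chr11:59810766-59810795, minus strand: agtgaacacaaCTTCCGGccccactgagcg
MRPS26, GRCh38.p14 chr20:3046004-3046033, plus strand: tccccgcgccgCTTCCGGggcacggtggcg

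RIP against input asked which mRNAs were over- or under-represented in the anti-FBL immunoprecipitate. The libraries include no control precipitate and no RIP with siFBL, so mRNA bound to FBL cannot be told apart from background carried over. Most mitoribosomal protein mRNAs were under-represented in the immunoprecipitate and a minority was over-represented. At an adjusted p (Benjamini-Hochberg, over all genes) below 0.05 in the quasi-likelihood test of edgeR, 57 of the 76 members tested were lower in RIP, 15 were higher and 4 were not called (MRPL17, MRPL41, MRPL51 and MRPS28). Among all 14967 genes tested 43% were lower and 39.9% higher, so a call by itself was common. The median log2 ratio was −1.55 over the members and −0.11 over all genes. With library totals in place of TMM factors the median of all genes moved to −1.05 and 73 members were lower and 2 higher, MRPS26 (0.33) and MRPS18A (0.23). Scaled to the mRNAs of the cytosolic ribosomal proteins it moved to 0.88, with 51 lower and 21 higher. A scaling shifts all genes of a library alike, so the distance between the members' median and that of all genes does not change with it. Directions of single members below are relative to TMM scaling.

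MRPS26, a mitochondria-specific protein of the small subunit, had the highest ratio. It was at 20.81 and 21.89 CPM in the input and at 49.89 and 53.14 CPM in RIP (log2 1.27, SE 0.0756, edgeR adjusted p = 7.28e-16). MRPS18A, one of 3 human relatives of bacterial S18 and the one that sits in the large subunit, was at 21.15 and 21.29 CPM in the input and at 47.26 and 48.6 CPM in RIP (log2 1.18). Both members had RIP libraries well above both input libraries. Its relatives in the small subunit lay on the other side. MRPS18B was at 138.2 and 145.3 CPM in the input and at 37.56 and 39.95 CPM in RIP (log2 −1.87), and MRPS18C at 4.06 and 3.82 CPM and at 0.708 and 0.798 CPM (log2 −2.38). Of the 3 paralogs 1 was thus called higher and 2 lower, where 39.9% of all genes were called higher and 43% lower.

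In the stalk, which recruits translation factors to the large subunit, MRPL12 was at 27.66 and 31.01 CPM in the input and at 46.6 and 45.24 CPM in RIP (log2 0.65). MRPL11, which forms the base of the stalk, was at 63.08 and 64.54 CPM in the input and at 14.66 CPM in both RIP libraries (log2 −2.12). MRPL12 was higher and MRPL11 lower in both RIP libraries than in both inputs, and MRPL12 turned to −0.30 with library totals. MRPL24 also rose in RIP, from 13.65 and 15.77 CPM to 26.15 and 29.28 CPM (log2 0.91), and was at −0.03 with library totals. MRPL45, which holds the exit tunnel at the inner membrane, was at 22.86 and 26.5 CPM in the input and at 29.19 and 31.84 CPM in RIP (log2 0.31, edgeR adjusted p = 0.00147), and at −0.64 with library totals. The remaining members that were higher in RIP were MRPS34 (log2 0.75), MRPS35 (0.65), MRPL35 (0.60), MRPL37 (0.59), MRPS16 (0.57), MRPL49 (0.49), MRPL16 (0.42), MRPS15 (0.41), MRPS22 (0.34) and MRPL20 (0.20). All 10 turned with library totals, to values from −0.74 (MRPL20) to −0.19 (MRPS34). MRPS22 stood at −0.61 there, MRPS15 at −0.53 and MRPL16 at −0.52. These 3 and MRPL20 are outside the naming rule and were named after their values were seen, to complete the 15.

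The 4 lowest ratios belonged to large- and small-subunit proteins with bacterial homologues. MRPL13 was at 30.98 and 30 CPM in the input and at 2.75 and 2.27 CPM in RIP (log2 −3.60, SE 0.121, edgeR adjusted p = 4.46e-22). MRPL14 was at 82.12 and 79.4 CPM and at 8.54 and 8.02 CPM (log2 −3.29), and MRPS17 at 43.67 and 43.34 CPM and at 4.87 and 4.83 CPM (log2 −3.16). Each of the 3 had both RIP libraries far under both inputs. MRPL27, of the central protuberance, was at 38.83 and 36.97 CPM in the input and at 4.83 and 4.45 CPM in RIP (log2 −3.03). All 7 members of that protuberance, the crown of the large subunit, were lower, with log2 ratios from −3.03 to −1.21. Next in order came MRPL21 (−2.83), MRPL54 (−2.66), MRPL22 (−2.63), MRPL53 (−2.61), MRPS21 (−2.58) and MRPS33 (−2.53). Among members given in each comparison, MRPS12, of the decoding centre, was at log2 −2.50, MRPL44 at −1.84, MRPS27 went from 216.9 and 218 CPM to 100.4 and 100.3 CPM, and MRPS30 from 58.15 and 56.37 CPM to 28.98 and 30.12 CPM (log2 −0.95). MRPS30 turned to 0.03 when scaled to cytosolic ribosomal protein mRNAs.

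**Figure D1:**
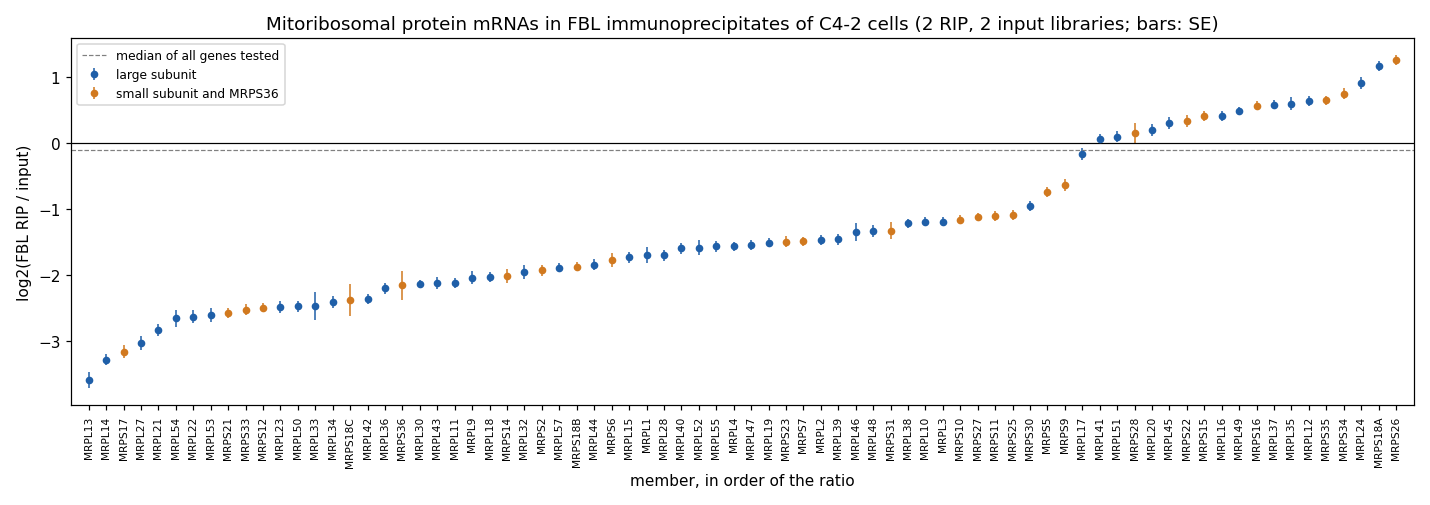
Log2 ratio of RIP to input for the 76 members tested, in order of the ratio, with standard errors from edgeR (2 RIP and 2 input libraries). Most points lie below the dashed median of all genes (−0.11), and 15 members from MRPL20 (0.20) to MRPS26 (1.27) were called higher.

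Both subunits were mostly lower: 38 of 50 large-subunit members against 9 higher (median log2 −1.59), and 18 of 25 small-subunit members against 6 higher (median −1.16). Of proteins with a bacterial homologue 37 of 47 were lower and 8 higher, and of mitochondria-specific ones 20 of 29 and 7 (19 of 28 and 7 without MRPS36). The RIP ratio rose with coding length, with a rank correlation of 0.467 over 76 members and 0.581 over 12864 genes. With transcript length it was 0.135 among the members and 0.478 among all genes, and with exon number 0.279 and 0.397. Members higher in RIP had a median coding length of 648 nt (411 to 1269) and those that were lower 576 nt (195 to 1317), so the ranges overlapped almost wholly. Genes of the same pathway under other symbols gave a mixed picture. Of 6 mitoribosomal proteins with other names 3 were higher and 3 lower. Of 23 assembly factors 18 were lower, led by MALSU1 (log2 −2.04), MPV17L2 (−1.69) and ERAL1 (−1.48), and 5 were higher, among them MTERF4 (1.88), NOA1 (1.63) and NSUN4 (1.28). Of 14 mitochondrial translation factors 7 were higher, led by LRPPRC (1.97), TUFM (1.70) and TACO1 (1.29), and 7 lower, led by MTIF3 (−2.39), SLIRP (−1.70) and MTRF1L (−1.60). Of 5 mitochondrial transcription genes TFAM (0.94) and POLRMT (0.87) were higher and TFB2M (−1.34) and TEFM (−0.26) lower.

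Knockdown of FBL in C4-2 was compared with siCTRL at 0 h. Of 77 members 6 were lower and 0 higher by edgeR's test (71 not called), against 6.87% lower and 1.61% higher among 23437 genes. The count depended on the tool: DESeq2 called 26 lower and 0 higher. With the number in the column names as a block, edgeR called 13 lower and 0 higher. The shares of all genes called by DESeq2 and with the block are not given, so neither count has a background beside it. The median log2 change was −0.31 over the members and 0.04 over all genes, but it was −0.26 over the 10027 genes averaging 5 CPM or more, 15.1% of which were lower. The members' shift at 0 h is therefore close to that of other expressed genes. Under library totals the median of all genes moved by 0.25 and the counts became 1 lower and 2 higher.

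MRPL11 had the largest fall. In the control libraries it was at 87.68 and 81.94 CPM at 0 h, 106 and 105 at 3 h, 123.8 and 122.5 at 6 h, and 144.8 and 134.5 at 12 h. With siFBL it was at 47.87 and 49.01, 67.94 and 62.85, 68.43 and 72.27, and 91.01 and 73.61 CPM. The siFBL libraries lay below the control libraries at each hour with no overlap, and the log2 change was −0.81 (SE 0.131, edgeR adjusted p = 0.000849) at 0 h and −0.75 (SE 0.0752, adjusted p = 1.49e-06) over the later hours. It was the one member that passed at 0 h under each scaling, with only the 0 h libraries and without each 0 h library in turn.

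MRPS6, of the small subunit, was at 30 and 24.81 CPM in the 0 h controls and at 16.43 and 16.56 CPM with siFBL (log2 −0.73, SE 0.187, adjusted p = 0.0229). At 12 h it was at 33.55 and 35.16 CPM and at 22.54 and 14.97 CPM, again with no overlap. MRPL17, close to the exit of the tunnel, was at 161.8 and 154.4 CPM and at 104.4 and 96.16 CPM at 0 h (log2 −0.66, SE 0.133, adjusted p = 0.00516). These groups are apart by more than their spread, as are those of MRPL16 (81.51 and 70.85 against 52.11 and 51.88 CPM, log2 −0.55), MRPS15 (215.7 and 207.8 against 142.4 and 154.1 CPM, log2 −0.51) and MRPL45 (108.8 and 98.14 against 68.74 and 79.22 CPM, log2 −0.48). Each of these 5 lost its call in at least one fit without a 0 h library: without control library A alone, MRPL11 was the single member called. Not called were MRPS18B (−0.41), MRPS12 (−0.39), MRPS27 (−0.35), MRPL44 (−0.34), MRPS30 (−0.24), MRPS18C (−0.24), MRPL12 (−0.16) and MRPS18A (−0.05). Of the pathway lists, 2 of 23 assembly factors fell (MPV17L2, log2 −0.70, and ERAL1, −0.54), as did TFAM of 5 transcription genes (−0.79), with 0 of 14 translation factors and 0 of 6 mitoribosomal proteins of other names called.

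Over the mean of 3, 6 and 12 h, 28 of 77 members were lower and 0 higher (median log2 −0.21), against 21.9% lower and 12.7% higher among all genes (median 0.09). Of genes with at least 5 CPM 42.9% were lower and 11.9% higher (median −0.23), so the share of members that fell (36.4%) was near that of expressed genes. At single hours the members had 5 lower at 3 h (MRPS6, MRPL11, MRPL17, MRPS15 and MRPL45; all genes 8.94% lower, 2.98% higher), 5 at 6 h (MRPL11, MRPS6, MRPL51, MRPL23 and MRPS15; 6.92 and 2.13%) and 16 at 12 h (10.7 and 2.73%), and 0 higher each time. The largest later falls were in MRPS6 (log2 −0.79), MRPL11 (−0.75), MRPS31 (−0.63), MRPS35 (−0.62), MRPL23 (−0.56), MRPL48 (−0.55), MRPS15 (−0.55), MRPL18 (−0.52), MRPL35 (−0.49) and MRPL51 (−0.49). Those of MRPS35 and MRPS31 were uneven: summed over the hours, MRPS35 was at log2 −0.28 in series A and −1.03 in series B, and MRPS31 at −0.36 and −0.88. MRPL45 (−0.41), MRPS27 (−0.30) and MRPL12 (−0.24) also fell, while MRPS18C (−0.21), MRPS18B (−0.21), MRPL44 (−0.19), MRPS12 (−0.16), MRPS30 (0.25) and MRPS18A (0.30) were not called. Of large-subunit members 17 of 50 were lower, and of small-subunit members 11 of 26.

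Libraries of all 4 hours lay below the control for 26 of 77 members (33.8%), against 17% of all genes, and the mean lay below at each hour for 57 members (74%) against 30.8%. The shares of all genes in this paragraph include genes with low counts, and those of genes with at least 5 CPM were not worked out. In the later-hour test above, 42.9% of the latter were lower, against 21.9% of all genes. By library series, the members' medians were −0.22 for A and −0.19 for B, and 59 members (76.6%) were below control in both, against 36.4% of all genes. When the counts were summed over the hours of each series, so that each siRNA had 2 samples, 16 members were lower and 0 higher, with 10.9% of all genes lower and 4.46% higher. These 16 were MRPL3, MRPL11, MRPL16, MRPL17, MRPL18, MRPL22, MRPL23, MRPL35, MRPL45, MRPL47, MRPL48, MRPL51, MRPS6, MRPS15, MRPS25 and MRPS26. The split between directions moved with the scaling, to 17 lower and 13 higher with library totals and to 22 and 10 when scaled to cytosolic ribosomal protein mRNAs.

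In HEK293T at 0 h, 0 of 76 members were called with siFBL or with siNOP56 by edgeR's test. At an unadjusted p below 0.05 there were 7 members with siFBL and 10 with siNOP56, against 2686 and 1800 of all 14939 genes. DESeq2 called 1 and 0 members. By edgeR's test 1.74% and 0.187% of all genes were called. The members' medians were 0.15 in both against 0.04 and 0.05 over all genes. MRPL11 was at 63.46 and 70.1 CPM with siCTRL, 65.48 and 69.66 with siFBL and 69.79 and 71.46 with siNOP56. The siFBL range lies within that of the controls. The other values with siFBL and siNOP56, none of them called, were 0.39 and 0.35 for MRPS30, 0.39 and 0.32 for MRPS12, 0.35 and 0.35 for MRPS18C, 0.22 and 0.19 for MRPL12, 0.16 and 0.55 for MRPS18B, and 0.13 and 0.04 for MRPS18A. MRPL44 was at −0.30 and −0.37, MRPL45 at −0.04 and 0.05, and MRPS27 at −0.16 and 0.0037.

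Over 6, 12 and 24 h with siFBL, 36 of 76 members were higher and 6 lower (median log2 0.26), against 21.1% higher and 18.6% lower among all genes (median 0.01) and 26.9% and 18.2% among genes with at least 5 CPM. At 6 h 5 members were higher and 0 lower (all genes 3.33 and 3.29%), at 12 h 11 and 1 (6.34 and 4.57%) and at 24 h 17 and 2 (8.96 and 6.11%). These counts treat the hours as independent samples, and they were not: siFBL libraries of the same number deviated from their group means alike from hour to hour (correlation over genes 0.63 to 0.69, siNOP56 0.44 to 0.60, siCTRL −0.01 to 0.02). With counts summed over the hours of each series, so that 2 samples stood against 2, 0 members were called with siFBL, as were 4 of 15406 genes, and the median was 0.24. The median by series was 0.15 in the first and 0.35 in the second, and 41 members (53.9%) were above control in both, against 35.1% of all genes. All libraries of all 4 hours lay above control for 24 of 76 members (31.6%), against 15.6% of all genes. These 2 shares of all genes include genes with low counts.

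MRPL1, a protein of the L1 stalk, showed the largest rise. It was at 15.3 and 17.6 CPM at 0 h, 17.06 and 16.27 at 6 h, 13.01 and 12.85 at 12 h and 11.92 and 8.24 at 24 h with siCTRL. With siFBL it was at 27.34 and 35.84, 31.49 and 49.98, 32.56 and 47.25, and 24.42 and 38.62 CPM. Each siFBL library lay above both controls of its hour, and the second series lay above the first each time (log2 1.13 and 1.74 by series, 1.52 over the later hours with SE 0.157, edgeR adjusted p = 3.89e-06). MRPL9 was at 11.85 and 11.5 CPM with siCTRL and at 22.15 and 51.43 CPM with siFBL at 24 h (log2 0.76 and 1.42 by series). MRPL21 was at 15.1 and 17.47 CPM and at 37.44 and 63.01 CPM at 24 h (0.96 and 1.38 by series). MRPS30, a mitochondria-specific protein of the large subunit despite its name, had the more even pair of series (0.89 and 1.10): it was at 11.47 and 12.64 CPM with siCTRL and at 24.89 and 25.72 CPM with siFBL at 6 h. MRPS10 was at 21.75 and 23.37 CPM and at 46.51 and 97.01 CPM at 24 h, and MRPS5 at 21.25 and 21.65 CPM and at 56.35 and 38.56 CPM (1.06 and 0.33 by series). In MRPL9, MRPL21, MRPS10 and MRPS5 both siFBL libraries were above both controls at 24 h, but they stood far apart from each other. MRPL15 (0.89), MRPL40 (0.72), MRPL32 (0.69) and MRPL47 (0.67) completed the 10 largest rises.

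The 6 that were lower were MRPL16 (log2 −0.74), MRPS28 (−0.64), MRPS31 (−0.63), MRPL23 (−0.63), MRPL44 (−0.60) and MRPS21 (−0.42). MRPL16 was at 73.14 and 63.22 CPM with siCTRL and at 42.41 and 37.67 CPM with siFBL at 12 h, and below control in both series (−0.63 and −0.84). MRPL44, a mitochondria-specific protein with a ribonuclease III fold, was at 7.16 and 7.15 CPM and at 3.88 and 4.38 CPM at 12 h, and below control in both (−0.71 and −0.47). Of the stalk, MRPL11 (0.17, SE 0.061, edgeR adjusted p = 0.0365) and MRPL12 (0.22, SE 0.0858, adjusted p = 0.0485) were called higher by small amounts. MRPS18C (0.67), MRPS12 (0.51) and MRPL45 (0.42) were higher, and MRPS27 (0.29), MRPS18A (0.10) and MRPS18B (−0.03) were not called. Of large-subunit members 26 of 50 were higher and 3 lower, and of small-subunit members 10 of 25 and 3. In the other lists, 9 of 14 translation factors were higher and 1 lower, 8 of 23 assembly factors and 3, 3 of 6 mitoribosomal proteins of other names and 0, and 1 of 5 transcription genes and 0.

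With siNOP56, which shares its control libraries with siFBL, 20 of 76 members were higher and 4 lower over the later hours (median 0.12), against 14.7 and 12.3% of all genes (median 0.01). Summed over the hours, 0 members and 0 of 15406 genes were called. The medians by series were 0.20 and 0.06. MRPL21 (1.11), MRPL9 (0.94), MRPS5 (0.87), MRPL1 (0.85) and MRPL47 (0.84) had the largest rises, followed by MRPL39 (0.69), MRPS10 (0.64), MRPS30 (0.62), MRPL3 (0.61) and MRPL52 (0.60). MRPL47 was at 11.85 and 10.27 CPM with siCTRL and at 19.83 and 23.95 CPM with siNOP56 at 24 h, with no overlap. MRPS34 (−0.76), MRPL44 (−0.66), MRPS14 (−0.38) and MRPS31 (−0.32) were lower. MRPL11 rose (0.23), and MRPS18C (0.40), MRPS12 (0.31), MRPL45 (0.25), MRPS18B (0.19), MRPS27 (0.11), MRPL12 (0.09) and MRPS18A (−0.18) were not called. The fall of MRPS34 came from one library series: at 12 h it was at 129.2 and 129.6 CPM with siCTRL, at 105.3 CPM in the first siNOP56 library and at 39.39 CPM in the second.

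**Figure D2:**
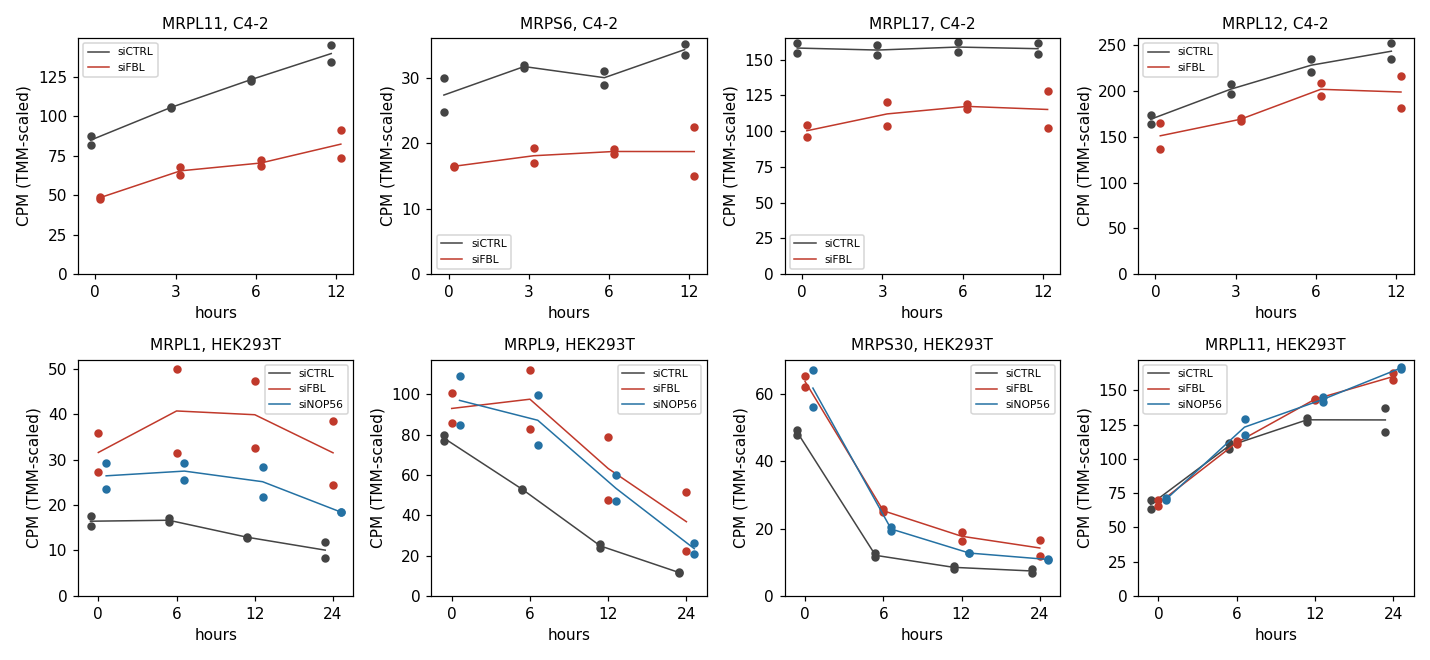
TMM-scaled CPM of single libraries (points) and group means (lines) by hour, for 4 members in C4-2 (top) and 4 in HEK293T (bottom); grey is siCTRL, red siFBL and blue siNOP56. In C4-2 the siFBL points of MRPL11, MRPS6 and MRPL17 lie under the controls at each hour, and in HEK293T those of MRPL1 lie above them with a wide gap between the 2 siFBL libraries.

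The effect of siFBL in C4-2 minus that in HEK293T was fitted in 1 model of both time courses. Each line had a time course of its own, with other depth and partly other hours, so line and experiment cannot be told apart. Effects within this joint model differ from those of the separate fits above, so its differences do not follow from them. At 0 h 1 of 77 members differed, MRPL11 (−0.61, SE 0.139, edgeR adjusted p = 0.00676), against 4.24% of genes lower and 3.26% higher in that difference. Over the hours that both lines share (0, 6 and 12 h), a comparison added after the data were seen, 27 members were lower and 1 higher (median −0.19, all genes 0.14, with 15.7% lower and 14.5% higher). Of genes averaging 5 CPM or more in C4-2, 28% were lower and 15.7% higher (median −0.13), nearer to the members' 35.1% lower. In that fit the C4-2 effect alone had 17 members lower and 5 higher (median −0.07). The HEK293T effect alone had 30 higher and 9 lower (median 0.19). With counts summed over hours 9 of 77 members were lower and 0 higher, against 8.46% of 20893 genes lower and 5.29% higher. The 9 were MRPL1, MRPL3, MRPL11, MRPL15, MRPL21, MRPL40, MRPL46, MRPL47 and MRPS11. The largest differences were those of MRPL1 (−1.14), MRPL9 (−0.92), MRPL15 (−0.89), MRPL21 (−0.85), MRPS10 (−0.72), MRPL3 (−0.71), MRPL47 (−0.71), MRPS11 (−0.67), MRPL11 (−0.67) and MRPS26 (−0.64). MRPS18C (−0.62), MRPS12 (−0.55), MRPS30 (−0.51) and MRPL45 (−0.50) were lower too, and MRPL12 (−0.24), MRPS18B (−0.11), MRPS27 (−0.10) and MRPS18A (0.22) were not called. MRPL44 was the member with a higher effect in C4-2 (0.60), and it lost its call with summed counts (0.32) and when scaled to cytosolic ribosomal protein mRNAs (0.43). MRPL3, which reaches towards the peptidyl transferase centre, was at 313 and 264.7 CPM with siCTRL and at 221.8 and 223.5 CPM with siFBL at 0 h in C4-2. In HEK293T it was at 190 and 182.7 CPM and at 222.1 and 242 CPM, so the 2 groups did not overlap in either line and lay in opposite order. At 0 h, however, MRPL3 was called in neither line. Over the later hours it was called lower in C4-2 and higher in HEK293T. Of the 28 members lower in C4-2 over the later hours, 10 (35.7%) were among the 36 higher in HEK293T (27.8% of those). This is less than the 47.4% of all members tested that were higher in HEK293T. With counts summed over hours 0 members were called in HEK293T. MRPL16, MRPL23, MRPS28 and MRPS31 were lower in both lines. The rank correlation of the later siFBL effects in the lines was 0.307 over 76 members and −0.023 over 14553 genes.

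**Figure D3:**
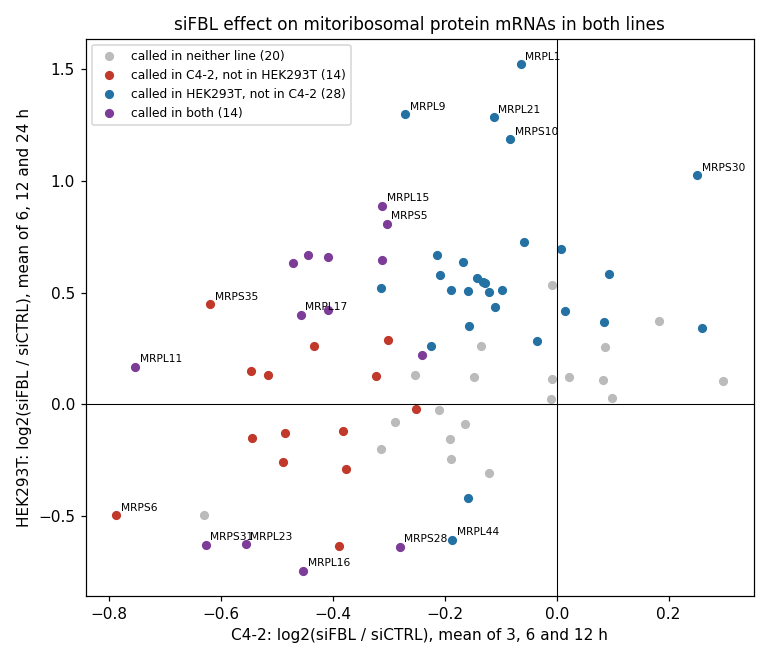
Log2 change with siFBL over the later hours in C4-2 (horizontal) and HEK293T (vertical), one point per member, coloured by the lines in which it was called. Points sit mostly left of 0 in C4-2 (median −0.21) and above 0 in HEK293T (median 0.26).

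Within the control cells, the slope over the hours gives the change of each mRNA relative to the rest of its library in log2 per hour, so that a negative slope means a faster loss than the average mRNA. In C4-2, 37 of 77 members had a higher and 7 a lower slope (median 0.036), against 15.9 and 19.2% of all genes (median 0.0035), and 33.9 and 31.3% of genes with at least 5 CPM. In HEK293T 12 of 76 were higher and 38 lower (median −0.026), against 22.2 and 28.6% (median −0.0052), and 27.9 and 31.7% of genes with at least 5 CPM. The split turned with the scaling, to 19 higher and 20 lower in C4-2 and 3 and 52 in HEK293T with library totals, and to 0 and 62 and 1 and 60 when scaled to cytosolic ribosomal protein mRNAs.

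The order of the members was much the same in both lines, with a rank correlation of 0.799 over 76 members and 0.695 over 14327 genes. MRPS30 fell fastest in C4-2 (−0.11 per hour, SE 0.0139, edgeR adjusted p = 7.77e-06), from 82.99 and 77 CPM at 0 h to 33.64 and 31.68 CPM at 12 h. In HEK293T it fell from 47.94 and 49.31 CPM to 8.96 and 8.01 CPM at 12 h (−0.11 per hour). Its libraries at 12 h lay far under those at 0 h in both lines. The 7 members with a lower slope in C4-2 (MRPL2, MRPL10, MRPL15, MRPL36, MRPL44, MRPL46 and MRPS30) were also lower in HEK293T. The 12 with a higher slope in HEK293T (MRPL11, MRPL13, MRPL24, MRPL33, MRPL42, MRPL48, MRPL53, MRPS7, MRPS14, MRPS21, MRPS25 and MRPS33) were also higher in C4-2. MRPL11 rose relative to its library from 87.68 and 81.94 to 144.8 and 134.5 CPM in C4-2, and from 63.46 and 70.1 to 129.9 and 127.1 CPM at 12 h in HEK293T. The highest slopes in C4-2 were those of MRPS15 (0.10), MRPL23 (0.10), MRPL33 (0.10), MRPL53 (0.09), MRPL24 (0.09), MRPS21 (0.08), MRPS14 (0.08), MRPL37 (0.08), MRPL13 (0.07) and MRPL41 (0.07). The lowest in HEK293T were those of MRPL9 (−0.12), MRPL17 (−0.12), MRPS30 (−0.11), MRPS26 (−0.10), MRPL44 (−0.10), MRPL36 (−0.08), MRPS17 (−0.08), MRPL39 (−0.08), MRPS27 (−0.08) and MRPL46 (−0.07). MRPL20, MRPL21, MRPL3, MRPL32, MRPL47 and MRPL49 were higher in C4-2 and lower in HEK293T.

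**Figure D4:**
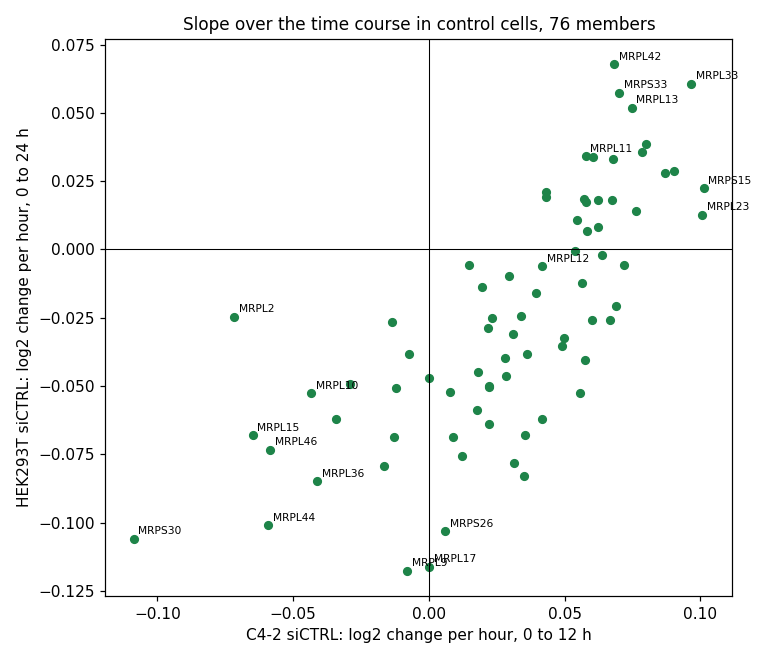
Slope over the hours in siCTRL cells, in log2 per hour relative to the library, for 76 members in C4-2 (horizontal, 0 to 12 h) and HEK293T (vertical, 0 to 24 h). MRPS30 lies at the lower left in both lines, and the cloud is tilted upwards (rank correlation 0.799).

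Slopes over the shared 0, 6 and 12 h were compared between the lines, again added after the data were seen. In C4-2, 29 of 77 members had a higher slope than in HEK293T and 0 a lower one (median 0.073). Of all genes 3.25% were higher and 1.64% lower (median 0.0062), and of genes averaging 5 CPM or more in C4-2, 5.81 and 2.66%. Scaled to cytosolic ribosomal protein mRNAs, 10 members were higher and 0 lower, and the share of all genes is not given. Line and experiment cannot be told apart here either. MRPL17 differed most (0.20 per hour): it was at 161.8 and 154.4 CPM at 0 h and 153.8 and 161.5 CPM at 12 h in C4-2, and at 54.19 and 48.93 and then 12.57 and 11.3 CPM in HEK293T. Relative to its library, it kept its level in C4-2 within the spread of its libraries and lost most of it in HEK293T. A flat relative level means a loss near the library's average rate, not a kept amount of mRNA. In the SLAM-seq control cells of C4-2 described below, MRPL17 kept 48.9% of its starting T>C share at 6 h. Next in slope difference came MRPS18C (0.18), MRPL9 (0.15), MRPL36 (0.14), MRPS26 (0.13), MRPL44 (0.13) and MRPL32 (0.13), with MRPL39, MRPS30 and MRPS17 at 0.12. The slopes differed between siRNAs for 0 members in C4-2 (siFBL minus siCTRL, 0.00437% of all genes called), for 0 in HEK293T with siFBL (0% of all genes) and for 0 with siNOP56 (0%). At an unadjusted p below 0.05 these were 2, 10 and 3 members, against 1079 of 22869, 443 of 14712 and 185 of 14712 genes. A change in relative decay with either siRNA was thus not detectable at this spread. With an intercept for each series MRPS5 was called with siFBL.

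In 12 of the 16 SLAM-seq libraries the labelled hour was another than the one in the file header, while the siRNA was the same in all 16, and the share of reads with a T>C conversion followed the header. The labelled hours therefore give no time course, and the values by hour below use the header. A fit with the labelled hour as a factor pools libraries of different header hours. In total reads, that fit tested 73 members and called 1, MRPL33 (lower with siFBL, log2 −0.48, SE 0.099, edgeR adjusted p = 0.0285), against 0.591% of genes lower and 0.338% higher. MRPL33, a small protein of the large subunit, lay between 98.43 and 126.4 CPM in the 8 control libraries and between 68.08 and 98.84 CPM in the 8 siFBL libraries, which overlap slightly. It lost its call in 12 of the 16 fits without 1 library of the fit on labelled hours, in which MRPL11 (log2 −0.33), MRPL44 (−0.31), MRPL12 (0.67), MRPS27 (0.60), MRPS18A (0.47), MRPS18C (0.02) and MRPS30 (0.0070) were not called. DESeq2 called 2 higher and 2 lower.

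With the header hour as the factor, 10 members were lower in total reads and 4 higher, against 5.71% of all genes lower and 5.94% higher. The 10 were MRPL50 (log2 −0.56), MRPL33 (−0.47, SE 0.078, edgeR adjusted p = 0.000834), MRPS35 (−0.46), MRPS15 (−0.42), MRPL16 (−0.36), MRPL10 (−0.35), MRPL11 (−0.29), MRPL35 (−0.26), MRPL34 (−0.21) and MRPS21 (−0.21). Those higher were MRPL37 (0.42), MRPL42 (0.35), MRPL18 (0.26) and MRPL14 (0.24). The 2 siFBL libraries of header 24 h stood apart. MRPS27 was at 185.8 and 184.1 CPM in them, at 49.92 and 48.94 CPM in the control libraries of that hour and at 44.89 to 51.72 CPM in the other siFBL libraries. MRPL12 was at 194.9 and 207.6 CPM against 35.76 and 45.88 CPM in those controls, and MRPS18A at 237.7 and 240.7 CPM against 73.28 and 81.63 CPM. In all, 8 of 73 members (MRPL12, MRPL27, MRPL37, MRPL38, MRPL41, MRPS18A, MRPS27 and MRPS34) were above the other 14 libraries in both and at least 2-fold above both controls, against 5.79% of all genes. This count was made after the values were seen. Without these 2 libraries, the header-hour fit called 15 members lower and 3 higher (all genes 7.08 and 8.67%), with MRPL12 at 0.13, MRPS18A at 0.07 and MRPS27 at −0.03, none of them called.

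The chase was read in the share of reads with a T>C conversion. At header 0 h it was 73.64 and 73.75% of the members' reads with siCTRL and 67.05 and 66.76% with siFBL, and at 6 h 46.89 and 46.48% and 40.21 and 39.72%. At 12 h it was 27.32 and 27.2% and 24.11 and 23.52%, and at 24 h 9.59 and 10.08% and 5.43 and 5.72%. The siFBL libraries lay below the control libraries at each of these hours, header 0 h included. Over all genes tested the shares were 58.38 and 58.31% with siCTRL at 0 h and 10.01 and 10.14% at 24 h, so the members began the chase above the average mRNA and ended near it. The fit on labelled hours called 0 of 73 members and 0% of all genes for this share, with 0 members at an unadjusted p below 0.05 (edgeR, with no other tool run). Its groups mix header hours with shares as different as 73.64 and 9.59%, and its standard errors for the members ran from 0.919 to 2.36 on the log2 scale, so the 0 says nothing about the share. With the header hour as the factor, 34 members were lower with siFBL and 0 higher (median −0.48), against 25.3% of 14207 genes lower and 0.0422% higher (median −0.57). Without the siFBL libraries of header 24 h, 24 were lower and 0 higher (median −0.40), against 17.5% of all genes lower.

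**Figure D5:**
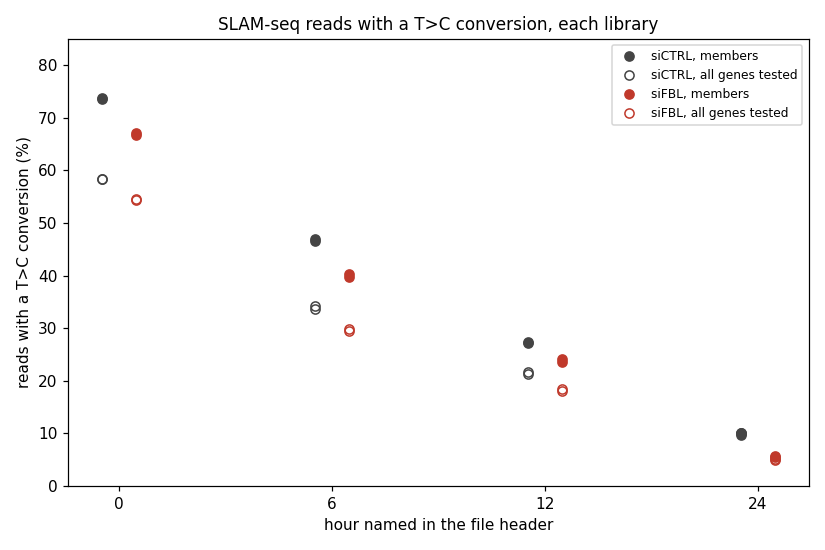
Share of SLAM-seq reads with a T>C conversion in each library (percent) by the hour named in the file header; filled points are the 73 members tested together, open points all genes, grey siCTRL and red siFBL. The siFBL points lie below those of siCTRL at each hour, for members and for all genes alike.

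Single members spread widely. At header 0 h the share in control cells ran from 44.16% (MRPL41) to 94.3% (MRPL50) with a median of 79.61%, and the medians at 6, 12 and 24 h were 44.08, 25.36 and 7.06%. MRPS30 fell from a mean of 84.48% to 25.45% at 6 h and 5.69% at 12 h, and MRPL44 from 92.71% to 32.85% and 11.3%. MRPL11 fell from 66.85% to 57.03% and 32.31%, the slower course of the 3. At 6 h MRPL46 kept 24% of its starting share, MRPS30 30.1% and MRPL44 35.4%, whereas MRPL11 kept 85.3%, MRPL24 88.5%, MRPL53 90.6% and MRPL52 93.1%. The median member kept 59.9% and the median gene 41%. Across 72 members, the share kept at 6 h and the C4-2 control slope, which come from different libraries and methods, had a rank correlation of 0.76, and over 11451 genes it was 0.668. It is given as a description, and it was computed after the data were seen.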

How the data were processed

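The members, roles and gene lists were chosen with earlier results of these data known. The time-course, RIP and input values are read counts per gene symbol as the authors deposited them. The authors deposited SLAM-seq counts of reads, and of reads with T>C conversions, per 3′ interval, with slamdunk 0.4.3 named per the file headers, on hg38 after Trim Galore (submitters' processing notes). Their deposited CPM column, treated as a score, served only to work out the number of mapped reads per SLAM-seq library. TopHat2 2.1.1 and HOMER are named for RIP without a role in the submitters' processing notes. The sources used here do not give the aligner and counter of the time courses or whether counting used strand, so overlapping genes cannot be told apart. The C4-2 column names hold a number that is not written as in the sample titles, so columns were matched to groups, and A and B follow that number. SLAM-seq libraries of the same number deviated together over the labelled hours (correlation 0.183 to 0.337), and blocking on it left the counts of calls at 1 and 0. At each labelled hour, libraries of different number had different header hours, alike in both siRNAs. At labelled 0 h, for example, number 1 had header 0 h and number 2 header 24 h. Neither the correlation nor the block can therefore tell pairing from the header hour.

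Counts were tested with edgeR 4.0.16 (R 4.3.3; TMM, filterByExpr, quasi-likelihood, 1 mean per siRNA and hour, or slopes), and called below a Benjamini-Hochberg adjusted p of 0.05 over all genes. Each SLAM-seq gene is its interval with the most reads. Of more than 10 called members, the 10 with the largest change in each direction were named among those with at least 5 CPM, and so were all called members where 10 or fewer were called. MRPL11, MRPL12, MRPL44, MRPL45, MRPS12, MRPS27, MRPS30, MRPS18A, MRPS18B and MRPS18C were named whether called or not. Ratios by series used a pseudocount of 0.5 CPM. Alternatives were DESeq2 1.42.0, other scalings, filters, replicate blocks, left-out libraries and, added later, summed series. The fits were tested on simulated data. No molecular identifiers are stated, so counts give counting error only. Nanopore libraries were not analysed here.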

Additional observations from a re-analysis of the deposited data

Results flagged for a closer look

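Each result here is a tested difference between the time courses of the 2 cell lines. Line and experiment cannot be told apart in it. At 0 h the siFBL effect of 1 member differed, that of MRPL11 (−0.61, C4-2 minus HEK293T). Over 0, 6 and 12 h it differed for 28 members, against 15.7% of all genes lower and 14.5% higher in that difference. Of genes averaging 5 CPM or more in C4-2, 28% were lower and 15.7% higher. The effects were lower in C4-2 for MRPL1 (−1.14), MRPL9 (−0.92), MRPL15 (−0.89), MRPL21 (−0.85), MRPS10 (−0.72), MRPL3 (−0.71), MRPL47 (−0.71), MRPL11 (−0.67), MRPS11 (−0.67) and MRPS26 (−0.64), and higher for MRPL44 (0.60). With counts summed over the hours of each series 9 members differed, against 8.46% of all genes lower and 5.29% higher. MRPL9, MRPS10, MRPS26 and MRPL44 were not among these 9.

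The slope over the hours in control cells, C4-2 minus HEK293T, differed for 29 members, against 3.25% of all genes higher and 1.64% lower. Of genes averaging 5 CPM or more in C4-2, 5.81% were higher and 2.66% lower. Scaled to cytosolic ribosomal protein mRNAs, the slope differed for 10 members. With TMM scaling it was higher in C4-2 for MRPL17 (0.20 log2 per hour), MRPS18C (0.18), MRPL9 (0.15), MRPL36 (0.14), MRPL44 (0.13), MRPL32 (0.13), MRPS26 (0.13), MRPS30 (0.12), MRPL39 (0.12) and MRPS17 (0.12).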

How the results depend on the processing

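Of 3869 values of named members under the alternatives, 3570 kept direction and call, 234 lost and 34 gained a call, and 31 changed sign. The cause was not tested. Summing each series over its hours, fits with series intercepts, the line differences over shared hours and the SLAM-seq fits without the siFBL libraries of header 24 h were added after the data were seen. Summed counts gave 16 calls in C4-2 over the later hours, 0 in HEK293T with siFBL and 0 with siNOP56. For the line difference over shared hours they gave 9, with 8.46% of all genes lower and 5.29% higher. Series intercepts gave 1 slope difference with siFBL in HEK293T. DESeq2 gave 26 calls in C4-2 at 0 h, 1 in HEK293T with siFBL at 0 h, 2 for the line difference at 0 h and 4 in SLAM-seq total reads. Shares of all genes called by DESeq2, with blocks or with other scalings are not given, so these counts have no background beside them. Library totals gave 3 in C4-2 at 0 h, as did the 0 h libraries alone (3). The header hour gave 14 in SLAM-seq total reads and 34 for the T>C share (18 and 24 without the siFBL libraries of header 24 h), and no filter gave 2 in total reads. Scaling to cytosolic ribosomal protein mRNAs left 10 differences in control slope between the lines.

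Without 1 library at a time, calls ranged from 1 to 5 in C4-2 at 0 h (1 without control A, 2 without siFBL A and 3 without siFBL B) and from 22 to 44 over the later hours (44 without siFBL 12 h A). They ranged from 31 to 50 for siFBL and 19 to 27 for siNOP56 in HEK293T, 39 to 44 and 42 to 50 for the slopes in C4-2 and HEK293T, 70 to 73 in RIP, 1 to 3 for the line difference at 0 h (3 without C4-2 control B) and 0 to 1 in SLAM-seq total reads. They were 0 in each such fit for HEK293T at 0 h, the slope differences between siRNAs and the T>C share.

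With library totals the RIP ratio turned to −0.30 for MRPL12, −0.029 for MRPL24, −0.34 for MRPL35, −0.36 for MRPL37, −0.64 for MRPL45, −0.45 for MRPL49, −0.37 for MRPS16, −0.19 for MRPS34 and −0.29 for MRPS35, and the C4-2 slope to −0.027 for MRPL45 and −0.022 for MRPS27. Scaled to cytosolic ribosomal protein mRNAs, MRPS30 in RIP turned to 0.034, and C4-2 slopes to −0.035 for MRPL11, −0.0505 for MRPL12, −0.017 for MRPL13, −0.0053 for MRPL24, −0.0163 for MRPL37, −0.0207 for MRPL41, −0.0845 for MRPL45, −0.0022 for MRPL53, −0.0138 for MRPS14, −0.0729 for MRPS18B, −0.0573 for MRPS18C, −0.0122 for MRPS21 and −0.08 for MRPS27. HEK293T slopes turned to −0.0061 for MRPL11, −0.0061 for MRPL48, −0.012 for MRPL53, −0.0047 for MRPS14, −0.0017 for MRPS21 and −0.0079 for MRPS7.

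Same-numbered libraries were not shown to be paired in RIP, HEK293T or C4-2, where their deviations correlated at 0.019, −0.017 to 0.101 and −0.141 to 0.012. In SLAM-seq, over the labelled hours, they correlated at 0.183 to 0.337, where the number also separates header hours, so pairing cannot be told from the header hour. With a replicate block, calls were 72 in RIP, 13 and 36 for siFBL in C4-2 at 0 h and later, 1 and 47 for siFBL in HEK293T, 0 and 29 for siNOP56, 45 and 51 for the slopes in C4-2 and HEK293T, 1 for the line difference at 0 h, 1 in SLAM-seq total reads and 0 for the T>C share and for each slope difference between siRNAs. For C4-2 the block took the number in the column names. The line differences over shared hours were not fitted with a block.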
